A study of Mus musculus with 6 samples.

Results

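The granzyme genes encode serine proteases that cytotoxic lymphocytes store in secretory granules, and their expression was followed here in mouse NK cells. The 10 genes Gzma, Gzmb, Gzmc, Gzmd, Gzme, Gzmf, Gzmg, Gzmk, Gzmm and Gzmn were taken by symbol, 1 row each, from 24343 genes listed per library. The NK cells had been sorted from spleens of female C57BL/6 mice as NK1.1+ and NKp46+ cells without CD3 or CD1d tetramer binding. There were 3 libraries from mice given an IL-15 cytokine complex (IL-15C) and 3 from mice given an IL-2 cytokine complex (IL-2C). Dose, time after injection and the partner protein in the complexes are not given in the sources used here, nor is whether each library is a separate mouse or a pool. P-values therefore measure the spread between these libraries, which may be technical. Untreated NK cells were not analysed here, so every difference is between the 2 treatments.

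When an NK cell recognises a target, its granules fuse with the membrane at the contact site, perforin opens the target membrane and granzymes enter. Inside the target each granzyme cleaves its own range of proteins. Granzyme B cuts after aspartate, granzymes A and K cut after basic residues, and granzyme M cuts after methionine or leucine. Mice carry an expanded set of granzyme B relatives, granzymes C, D, E, F, G and N, which humans lack. NK cells of mice are known to hold granzyme transcripts before they make much granzyme protein, so a transcript level is not a protein level.

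The libraries held 23543141 to 27229145 fragments as implied by the deposited intervals. The sort markers were present in every library. The 12 NK cell markers summed to between 7020.6 and 7127.7 FPKM in the IL-15C libraries, against 7129.9 to 7717.6 FPKM in the IL-2C libraries, where FPKM is the number of fragments per kilobase of transcript scaled to the mapped fragments of the library. Of the 9 T cell markers, Cd4, Cd8a and Cd8b1 stayed at or below 0.0767 FPKM in every library. The CD3 chain genes Cd3d, Cd3e and Cd3g lay at 15.3 to 22.3, 3.40 to 5.70 and 30.7 to 44.6 FPKM. Cd28 lay at 13.7 to 15.9 FPKM. The 8 listed of 9 neutrophil markers summed to 110.7, 41.1 and 54.7 FPKM in IL-15C replicates 1, 2 and 3, against 60.2, 54.9 and 40.6 in IL-2C replicates 1, 2 and 3. IL-15C replicate 1 thus stood above the other 5 libraries in these genes. The 6 listed of 8 B cell markers summed to between 4.99 and 15.6 FPKM in the IL-15C libraries, against 9.10 to 21.8 FPKM in the IL-2C libraries. The T cell markers summed to between 64.7 and 87.8 FPKM in IL-15C, against 66.4 to 71.9 in IL-2C, while the macrophage and dendritic cell markers summed to between 266 and 282 FPKM in IL-15C, against 221 to 235 in IL-2C, most of it Itgax, which NK cells also express. Mast cell and basophil markers summed to between 7.31 and 9.66 FPKM in IL-15C, against 7.79 to 9.73 in IL-2C, with Tpsb2, Tpsab1 and Mcpt4 at 0. Past the test were Itgax (log2 change 0.29, limma adjusted p = 0.0209) and the neutrophil gene Retnlg (0.57, adjusted p = 0.0445). Their part in the granzyme values was not tested, and in bulk RNA more expressing cells and more RNA per cell cannot be told apart.

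The family lies in 3 places of the mm10 genome. Gzmb, Gzmc, Gzmf, Gzmn, Gzmg, Gzmd and Gzme follow each other on chromosome 14, Gzma and Gzmk are neighbours on chromosome 13, and Gzmm is on chromosome 10. Promoters are shown for the genes whose levels differ most in this family, namely the 2 genes higher in IL-15C (Gzmk and Gzmb), the most abundant gene (Gzma), a weakly expressed gene (Gzmc) and its close relative listed at 0 (Gzmd). Each sequence is the 250 bases before the RefSeq transcript start on build GRCm38.p6, read 5′ to 3′ on the minus strand, where all 5 genes lie. Capitals mark the motifs GTGTGA (T-box factors), TGTGGT (RUNX factors), TGANTCA (AP-1), TGACGTCA (cyclic AMP response element) and TTCNNNGAA (STAT factors), searched on both strands.
Gzmk (chr13:113180966-113181215): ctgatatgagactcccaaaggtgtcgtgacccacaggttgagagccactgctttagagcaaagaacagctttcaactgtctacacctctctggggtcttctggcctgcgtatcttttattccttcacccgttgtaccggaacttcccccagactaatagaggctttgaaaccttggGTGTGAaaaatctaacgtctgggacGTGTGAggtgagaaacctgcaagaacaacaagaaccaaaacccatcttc
Gzmb (chr14:56262335-56262584): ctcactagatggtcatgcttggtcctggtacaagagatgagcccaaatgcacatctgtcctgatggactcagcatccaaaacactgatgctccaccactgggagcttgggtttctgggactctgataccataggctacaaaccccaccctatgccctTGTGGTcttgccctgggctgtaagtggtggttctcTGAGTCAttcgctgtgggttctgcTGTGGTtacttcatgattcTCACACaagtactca
Gzma (chr13:113100982-113101231): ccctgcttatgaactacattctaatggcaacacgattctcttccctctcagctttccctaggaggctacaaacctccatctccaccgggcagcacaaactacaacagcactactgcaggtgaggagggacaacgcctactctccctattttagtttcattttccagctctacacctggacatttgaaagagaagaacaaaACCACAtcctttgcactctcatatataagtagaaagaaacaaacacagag
Gzmc (chr14:56234658-56234907): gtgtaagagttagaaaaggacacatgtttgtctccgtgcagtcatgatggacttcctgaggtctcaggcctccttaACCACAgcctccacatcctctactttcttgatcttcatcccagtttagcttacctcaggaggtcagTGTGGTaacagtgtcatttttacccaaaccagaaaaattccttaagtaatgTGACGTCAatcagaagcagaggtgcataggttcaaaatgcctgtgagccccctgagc
Gzmd (chr14:56132594-56132843): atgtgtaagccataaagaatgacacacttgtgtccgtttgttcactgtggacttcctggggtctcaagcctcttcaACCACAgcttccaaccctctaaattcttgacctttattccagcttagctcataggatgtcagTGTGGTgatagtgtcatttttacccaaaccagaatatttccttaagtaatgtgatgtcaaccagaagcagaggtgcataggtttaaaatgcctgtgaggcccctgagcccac

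The Gzmk window held the T-box motif at 2 places, 74 to 69 and 49 to 44 bases before the start. The Gzmb window held 2 RUNX motifs, an AP-1 motif at 58 to 52 bases and a T-box motif at 15 to 10 bases before the start. The Gzma window held 1 RUNX motif and no other of the motifs searched. Of 32851 mouse promoter windows of this length, 12.3% held the T-box motif, 14% the RUNX motif, 6.75% the AP-1 motif, 7.02% the STAT motif and 1.55% the cyclic AMP response element, and no motif overlapped another in the 5 windows shown. The STAT motif was in none of the 5 windows; among the 10 genes it was found only before a start of Gzmm, which has 2 starts in RefSeq. The RefSeq starts of Gzmb and Gzmk lie upstream of the locus ends in the authors' files. These are letter matches and not binding sites. The Gzmc and Gzmd windows were identical at 80.5% of aligned positions, although Gzmc was expressed and Gzmd was listed at 0. Both held 2 RUNX motifs, and the window of Gzmc, but not that of Gzmd, held the cyclic AMP response element. That element was also in the windows of Gzmf and Gzmg, which were listed at 0 as well. The Gzmb window shared 47.5% of positions with that of Gzmc, against 94.8% between Gzmd and Gzme. The windows of Gzma and Gzmn, on different chromosomes, shared 49.5%, so 47.5% is a level also found between genes that are not neighbours.

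Levels of the 5 members above 0 differed widely and kept the same order in every library. Gzma (chr13:113093827-113100981) was the second most abundant of all genes in each of the 6 libraries. Gzma stood at 6048, 5876 and 5691 FPKM in the IL-15C libraries, against 6022, 5078 and 5632 FPKM in the IL-2C libraries. Gzmb followed and ranked between 71 and 88 among all genes in IL-15C, against 133 to 149 in IL-2C. Over the 6 libraries the mean of Gzma was 12.4 times that of Gzmb, Gzmb was 21.8 times Gzmk, Gzmk was 3.91 times Gzmm and Gzmm was 4.70 times Gzmc. The ranges of neighbours in this order did not overlap: the lowest Gzmk value, 10.8 FPKM, was above the highest Gzmm value, 6.88 FPKM, and the lowest Gzmm value, 4.73, was above the highest Gzmc value, 2.15.

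**Figure D1:**
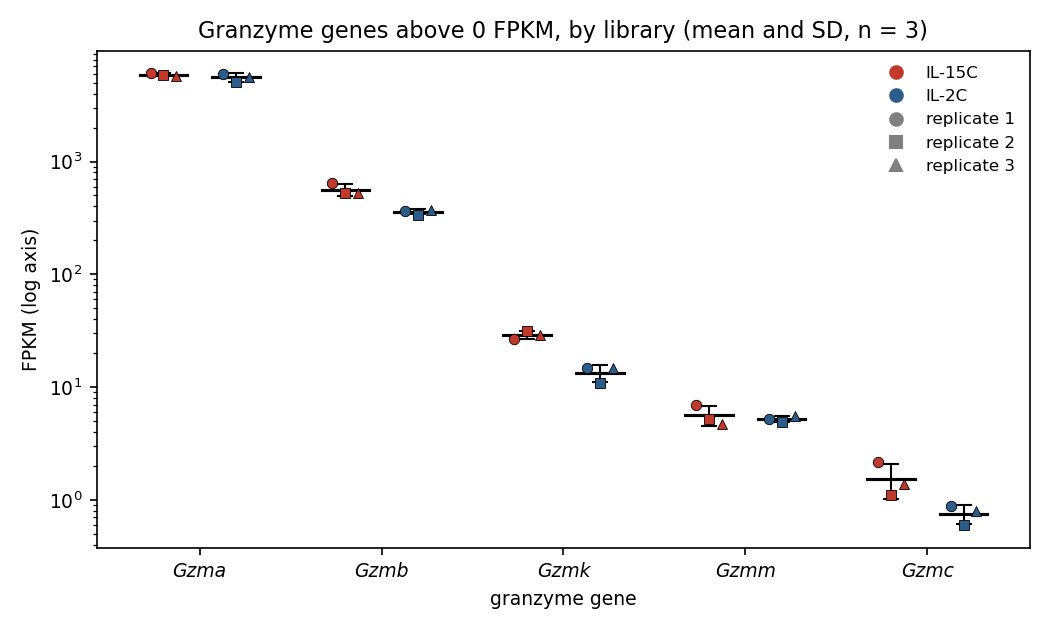
FPKM of the 5 granzyme genes above 0, on a log axis, with 1 point per library, the group mean and its SD (n = 3); IL-15C is left of IL-2C for each gene. Gzmb and Gzmk have all 3 IL-15C points above the IL-2C points, while the points of Gzma and Gzmm overlap.

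Of the 10 members, 5 were listed at 0, and Gzmc was the weakest of those above 0. Gzmc had 78, 43 and 54 implied fragments in IL-15C, against 32, 26 and 34 in IL-2C. Gzmd (chr14:56129568-56132593), Gzme (chr14:56117619-56120625), Gzmf (chr14:56205263-56211407), Gzmg (chr14:56156581-56159579) and Gzmn (chr14:56165796-56174599) were at exactly 0 FPKM in all 6 libraries, none of them marked as a failed estimate. All 12 housekeeping genes checked were above 0, the lowest at 15.9 FPKM. Of 80 ribosomal protein genes, 2 were at 0 in at least 1 library, Rpl10l and Rpl3l, which are known as relatives restricted mainly to testis and to muscle. In files without read counts a 0 need not mean that no fragment was sequenced, so a listed 0 does not by itself show that a gene was not expressed. At the FPKM that 1 fragment is worth for Gzmc, a limit of 3 fragments per library would correspond to between 0.0768 and 0.0831 FPKM in the IL-15C libraries, against 0.0693 to 0.0829 FPKM in the IL-2C libraries. This limit covers counting error only. Transcripts of these genes resemble each other: 21.9% of the stretches of 50 bases in Gzmd, 20.6% in Gzme and 19.8% in Gzmg also occur in another gene, and in Gzmf and Gzmn it was 7.36% and 5.74%. Of Gzmc stretches 4.14% were shared, and of Gzma, Gzmb, Gzmk and Gzmm 0%. How shared reads were counted was not stated in the sources used here, so the values of Gzmc and its relatives are less certain than those of the other 4 genes.

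Of the 5 granzyme genes with a mean of at least 1 FPKM, 2 rose in IL-15C, 0 fell and 3 did not pass the test. The test was limma on log2(FPKM + 1) over 9831 genes, called at a Benjamini-Hochberg adjusted p under 0.05, and it called 1.72% of all tested genes higher and 4.72% lower, or 6.44% in either direction. The balance of calls over all genes depended on scaling: 169 genes were higher and 464 lower as deposited, 325 higher and 207 lower after scaling to a common median, 308 and 272 after quantile normalization and 208 and 328 as TPM, while Gzmk and Gzmb were called higher under each. The median log2 change of the 5 genes was 0.52, which is the value of Gzmc, beside -0.04 over all tested genes. Gzmc reached the mean of 1 FPKM only through its IL-15C libraries, with means of 1.55 FPKM in IL-15C and 0.757 FPKM in IL-2C. The filter thus favoured a gene that is high in IL-15C. Groups did not overlap for 3 of the 5 genes, Gzmb, Gzmk and Gzmc, all higher in IL-15C. Of all tested genes 8.15% were separated in that direction, but for Gzmc the filter favoured such a separation. The 5 members listed at 0 were not in the fit, and an exact permutation test on equal values has nothing to test.

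Gzmk (chr13:113171874-113180897), which encodes granzyme K, a tryptase made by subsets of T and NK cells, had the largest log2 change of the 5 tested members. The IL-15C libraries had 26.6, 31.4 and 28.8 FPKM, against 14.7, 10.8 and 14.9 FPKM in the IL-2C libraries. Every IL-15C library lay above every IL-2C library. The means were 28.9 ± 2.40 FPKM for IL-15C and 13.5 ± 2.31 FPKM for IL-2C (SD, n = 3 each), a 2.15-fold ratio, from 2341 implied fragments in IL-15C and 1180 in IL-2C. The log2 change was 1.06 ± 0.11 (SE), with a 95% interval of 0.81 to 1.30 and a limma adjusted p of 0.00264. Leaving out any 1 library kept the adjusted p of Gzmk between 0.000424 and 0.0222. Without IL-15C replicate 1, which had the lowest Gzmk of its group, the log2 change was 1.12. That library also had the most neutrophil marker RNA, and whether this bears on Gzmk was not tested. The call ended when all 24333 genes without a failed estimate were tested with no filter on low values (adjusted p = 0.114).

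Gzmb (chr14:56258858-56262260), which encodes granzyme B, a protease that cuts after aspartate, rose as well. The IL-15C libraries had 642, 523 and 525 FPKM, against 367, 338 and 375 FPKM in the IL-2C libraries. The lowest IL-15C value was well above the highest IL-2C value, and IL-15C replicate 1 was the highest. That library also had the most neutrophil marker RNA, and whether this bears on Gzmb was not tested. The means were 563 ± 67.9 FPKM for IL-15C and 360 ± 19.0 FPKM for IL-2C (SD, n = 3 each), a 1.57-fold ratio. The log2 change was 0.64 ± 0.08 (SE), with a 95% interval of 0.45 to 0.83 and a limma adjusted p of 0.00916. Without IL-15C replicate 1 the log2 change was 0.54 and the adjusted p was 0.00174. Without IL-2C replicate 2 it was 0.60, and the adjusted p of 0.0516 missed the threshold; with no filter on low values the adjusted p was 0.126.

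Gzmc (chr14:56231401-56234656), the gene next to Gzmb in the genome, had a ratio of means like that of Gzmk at a far lower level. The IL-15C libraries had 2.15, 1.12 and 1.38 FPKM, against 0.881, 0.596 and 0.793 FPKM in the IL-2C libraries. The groups did not overlap, but the deposited bounds of the lowest IL-15C library, 0.778 to 1.46 FPKM, included the highest IL-2C value. The means were 1.55 ± 0.537 FPKM for IL-15C and 0.757 ± 0.146 FPKM for IL-2C (SD, n = 3 each), a 2.05-fold ratio. The log2 change was 0.52 ± 0.14 (SE), smaller than the log2 of that ratio because 1 FPKM was added to each value. The limma adjusted p of 0.0552 missed the threshold. It passed without IL-15C replicate 2 (adjusted p = 0.0492) and with 0.1 FPKM added in place of 1 (adjusted p = 0.0486). It also passed with replicate number as a block (adjusted p = 0.0379). The other fits gave adjusted p from 0.0509 to 0.326.

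Gzma, which encodes granzyme A, and Gzmm (chr10:79689020-79695261), which encodes granzyme M, did not pass the test. The means of Gzma were 5872 ± 178 FPKM in the IL-15C libraries and 5577 ± 474 FPKM in the IL-2C libraries (SD, n = 3 each). Its log2 change was 0.08 ± 0.10 (SE; limma adjusted p = 0.648), with a 95% interval of -0.15 to 0.30. The values of Gzmm were 6.88, 5.24 and 4.73 FPKM in the IL-15C libraries, against 5.17, 4.92 and 5.56 FPKM in the IL-2C libraries. The highest and the lowest Gzmm value were both in IL-15C. Its log2 change was 0.08 ± 0.10 (SE; limma adjusted p = 0.666), with a 95% interval of -0.16 to 0.31, and it was -0.06 without IL-15C replicate 1.

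Gzma made up most of the family's summed FPKM. The sums were 6725, 6436 and 6252 FPKM in the IL-15C libraries, against 6409, 5433 and 6027 FPKM in the IL-2C libraries. These groups overlap, and the ratio of means was 1.09. Of the difference of 515 FPKM between the means, Gzma contributed 294 and Gzmb 204, although the share of Gzma rests on a difference within its replicate spread. Gzma made up 89.9%, 91.3% and 91.0% of the summed granzyme FPKM in the IL-15C libraries, against 94.0%, 93.5% and 93.4% in IL-2C. Gzmb made up 9.54%, 8.13% and 8.40% in the IL-15C libraries, against 5.72%, 6.23% and 6.22% in IL-2C.

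Ratios within a library do not change when all its values are scaled by 1 factor, which is not how quantile normalization works. They set the members against each other. Gzmb FPKM was 10.6%, 8.90% and 9.23% of Gzma FPKM in the IL-15C libraries, against 6.09%, 6.66% and 6.65% in IL-2C. All IL-15C ratios were above all IL-2C ratios, and their mean log2 difference was 0.56. Gzmk FPKM was 0.439%, 0.534% and 0.506% of Gzma FPKM in the IL-15C libraries, against 0.245%, 0.213% and 0.264% in IL-2C. These groups did not overlap either, with a mean log2 difference of 1.04. The exact two-sided permutation p was 0.1 for each ratio, which is the smallest that 3 against 3 libraries allow, so neither could pass 0.05; adjusted over the 2 ratios it was also 0.1. Between the risen genes, IL-15C replicate 1 had the highest Gzmb and the lowest Gzmk of its group.

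**Figure D2:**
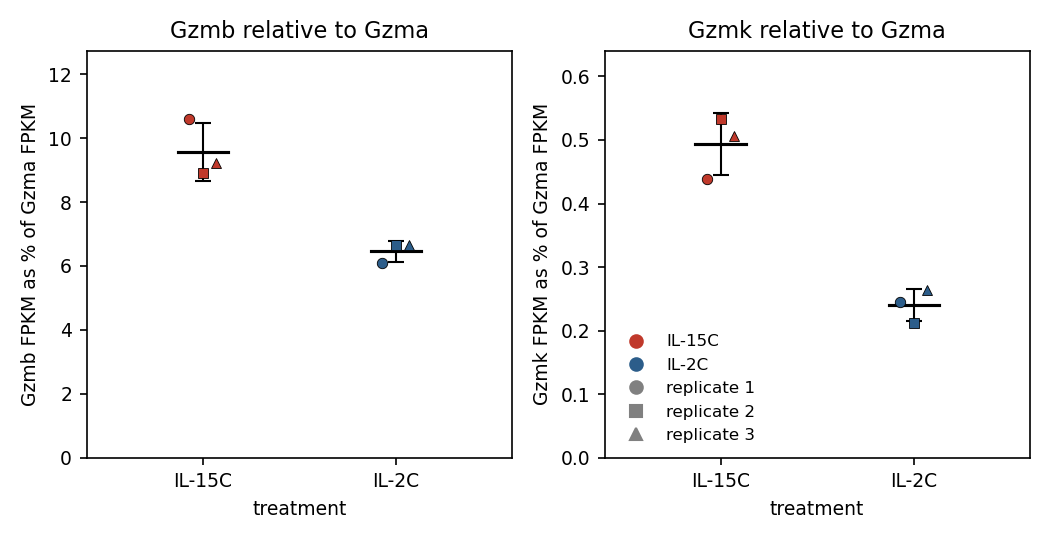
Gzmb FPKM (left) and Gzmk FPKM (right) as a percentage of Gzma FPKM of the same library, with 1 point per library, the group mean and its SD (n = 3) and axes from 0. The IL-15C points lie above all IL-2C points in both panels.

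In the authors' deposited table, which gives 1 value per group, pools the same libraries and is scaled separately, Gzmk stood at 39.3 FPKM for IL-15C against 17.7 FPKM for IL-2C, and Gzmb at 763 FPKM for IL-15C against 474 FPKM for IL-2C. The authors' deposited intervals for these genes did not overlap, at 32.4 to 46.1 in IL-15C against 14.01 to 21.4 in IL-2C for Gzmk and 643 to 884 in IL-15C against 401 to 546 in IL-2C for Gzmb. For Gzmc the authors' deposited table gave 2.09 FPKM for IL-15C against 0.996 FPKM for IL-2C with overlapping intervals, and it listed the same 5 genes at 0. Being made from the same libraries, these values are no independent evidence.

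The granzymes on chromosome 14 sit in a cluster with proteases of mast cells and other leukocytes. Transcripts were found mainly at its ends. Cma1, which encodes a chymase, opens the cluster and was at 181, 212 and 219 FPKM in the IL-15C libraries, against 275, 241 and 248 FPKM in the IL-2C libraries, while Gzmb closes it. Of the 13 genes between Cma1 and Gzmb, Gzmc was the only one to reach 1 FPKM in any library. Cma1 fell in IL-15C by 0.32 ± 0.08 on the log2 scale (limma adjusted p = 0.0474), the opposite direction to Gzmb, but this call ended with any library left out and under each of the 3 other scalings, with adjusted p between 0.0508 and 0.143 in those fits, and also without the trend (0.0573), among genes above 0 in all libraries (0.0889) and with no filter (0.278). Beyond the cluster, Sdr39u1 next to Cma1 had a log2 change of -0.002, and Atp12a next to Gzmb was listed at 0. Of the mast cell protease genes, Mcpt1, Mcpt2 and Mcpt4 were listed at 0 and Mcpt8, a basophil protease gene, reached 0.932 FPKM. Ctsg, which encodes the neutrophil protease cathepsin G, had 0.299, 0.0867 and 0.150 FPKM in the IL-15C libraries, against 0.0699, 0.0390 and 0.0382 FPKM in the IL-2C libraries. All Ctsg values were thus at or below 0.299 FPKM, and their source was not tested.

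**Figure D3:**
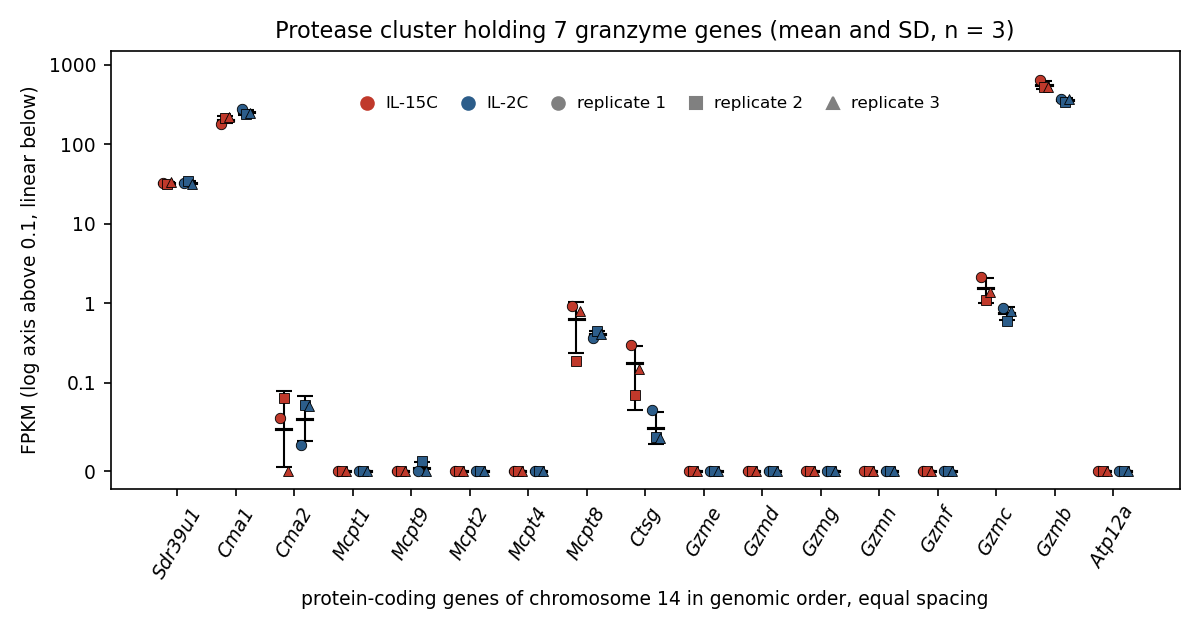
FPKM of the protein-coding genes of the chromosome 14 protease cluster in genomic order at equal spacing, with Sdr39u1 and Atp12a flanking it, on an axis that is logarithmic above 0.1 and linear below; points are libraries and bars the mean and SD (n = 3). Cma1 at 181 to 275 FPKM and Gzmb at 338 to 642 FPKM stand at the ends, and the genes between lie at or below 2.15 FPKM.

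On chromosome 13, Gzmk rose and its neighbour Gzma did not pass the test. Cdc20b, which ends closest to Gzma, had a log2 change of -0.12 (limma adjusted p = 0.145). Gpx8, which lies within the span of Cdc20b, had 0.09 (limma adjusted p = 0.410). Esm1, which lies on the other strand within the span that GENCODE gives Gzmk, was at or below 0.135 FPKM in every library. Snx18, the next gene past Esm1, fell in IL-15C with a log2 change of -0.18 (limma adjusted p = 0.0368), beside 4.72% of all tested genes called lower. Its means were 36.5 FPKM in IL-15C and 41.5 FPKM in IL-2C. Around Gzmm on chromosome 10, Cdc34 and Bsg had log2 changes of 0.02 and -0.03 (limma adjusted p of 0.896 and 0.793).

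The machinery that stores and releases granzymes did not change past the test. Of 15 genes of granule exocytosis, 0 rose, 0 fell and 15 did not pass in limma, 2 of them with separated groups, both higher in IL-15C, beside 8.15% of all tested genes separated in that direction and 33.3% in either, and their median log2 change was 0.05 beside -0.04 for all tested genes. At an unadjusted p under 0.05, 3 of the 15 were higher and 0 lower, where 637 of all tested genes were higher and 2006 lower. Prf1, which encodes perforin, averaged 626 ± 27.3 FPKM in the IL-15C libraries and 585 ± 61.0 FPKM in the IL-2C libraries (SD, n = 3 each), a log2 change of 0.10 ± 0.08 (SE). Srgn, which encodes the granule proteoglycan serglycin that binds granzymes, had a log2 change of 0.15 ± 0.07.

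Of 8 tested genes that activate or sort granzymes, 1 rose, 0 fell and 7 did not pass, beside 1.72% of all tested genes called higher and 4.72% lower. Their median log2 change was 0.005, beside -0.04 for all tested genes. Igf2r, which encodes the large mannose 6-phosphate receptor, had 24.5, 23.6 and 22.1 FPKM in the IL-15C libraries, against 17.97, 17.9 and 18.7 FPKM in the IL-2C libraries. Among the 8 genes the groups were separated for 1, Igf2r, higher in IL-15C, beside 8.15% of all tested genes separated in that direction. Its log2 change was 0.34 ± 0.05 (SE; limma adjusted p = 0.0106), and the call ended when IL-2C replicate 1 (adjusted p = 0.0580) or 2 (adjusted p = 0.0594) was left out. Ctsc, which encodes the cathepsin that trims granzymes into active enzymes, averaged 73.6 ± 5.68 FPKM in the IL-15C libraries and 74.5 ± 4.71 FPKM in the IL-2C libraries (SD, n = 3 each).

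Serpins protect the NK cell from its own granzymes. All 6 tested inhibitor genes had a positive log2 change, with a median of 0.19 beside -0.04 for all tested genes. Of these, 1 rose, 0 fell and 5 did not pass, beside 1.72% of all tested genes called higher and 4.72% lower. Groups were separated for 5, all higher in IL-15C, beside 8.15% of all tested genes separated in that direction. Among these 5 was Serpina3f, which reached the mean of 1 FPKM only through its IL-15C libraries. Its means were 1.83 FPKM in IL-15C and 0.780 FPKM in IL-2C, so the filter favoured its direction. Serpinb9b, a relative of the granzyme B inhibitor gene Serpinb9, had 71.2, 75.7 and 65.9 FPKM in the IL-15C libraries, against 59.3, 57.0 and 62.5 FPKM in the IL-2C libraries. Its log2 change was 0.25 ± 0.06 (SE; limma adjusted p = 0.0415). The call ended without IL-15C replicate 2 (adjusted p = 0.123), or when IL-2C replicate 1 (0.125), 2 (0.145) or 3 (0.0557) was left out. It also ended in limma without the trend (adjusted p = 0.0557) and when genes above 0 in all libraries were tested (adjusted p = 0.0757). Serpinb9 itself had 0.16 ± 0.05 (limma adjusted p = 0.0940) and Serpinb6b, an inhibitor of granzyme A, had 0.12 ± 0.04 (adjusted p = 0.106). After scaling to a common median these reached adjusted p of 0.0276 for Serpinb9 and 0.0449 for Serpinb6b, so which inhibitor genes passed depended on scaling. Related serpin genes can share reads, which makes their separate values less certain.

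Of 16 genes for transcription factors linked to granzyme expression, 0 rose, 2 fell and 14 did not pass. Of all tested genes 1.72% were called higher and 4.72% lower. The median log2 change of the 16 was -0.09, beside -0.04 for all tested genes. Groups were separated for 7 of the 16, all lower in IL-15C. Of all tested genes 33.3% were separated in either direction, a share that includes 8.15% with IL-15C higher. At an unadjusted p under 0.05 in limma, 0 were higher and 6 lower, where 637 of all tested genes were higher and 2006 lower. Tcf7, which encodes the factor TCF-1 of naive and memory-type lymphocytes, fell by 0.42 ± 0.06 on the log2 scale (SE; limma adjusted p = 0.0130), with 35.4, 34.8 and 31.2 FPKM in the IL-15C libraries, against 42.9, 49.3 and 44.9 FPKM in the IL-2C libraries. Zeb2, a factor of terminal NK maturation, fell by 0.31 ± 0.05 (limma adjusted p = 0.0165). The call of Tcf7 ended without IL-2C replicate 2 (adjusted p = 0.0603), and that of Zeb2 when IL-2C replicate 1 (0.0665) or 2 (0.0603) was left out. The T-box factor genes had log2 changes of 0.001 ± 0.08 for Tbx21 and -0.17 ± 0.05 for Eomes (limma adjusted p of 0.994 and 0.0755). Runx3 had 0.05 ± 0.06. With no filter on low values the calls of Igf2r, Serpinb9b, Tcf7 and Zeb2 ended as well, with adjusted p between 0.110 and 0.230.

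**Figure D4:**
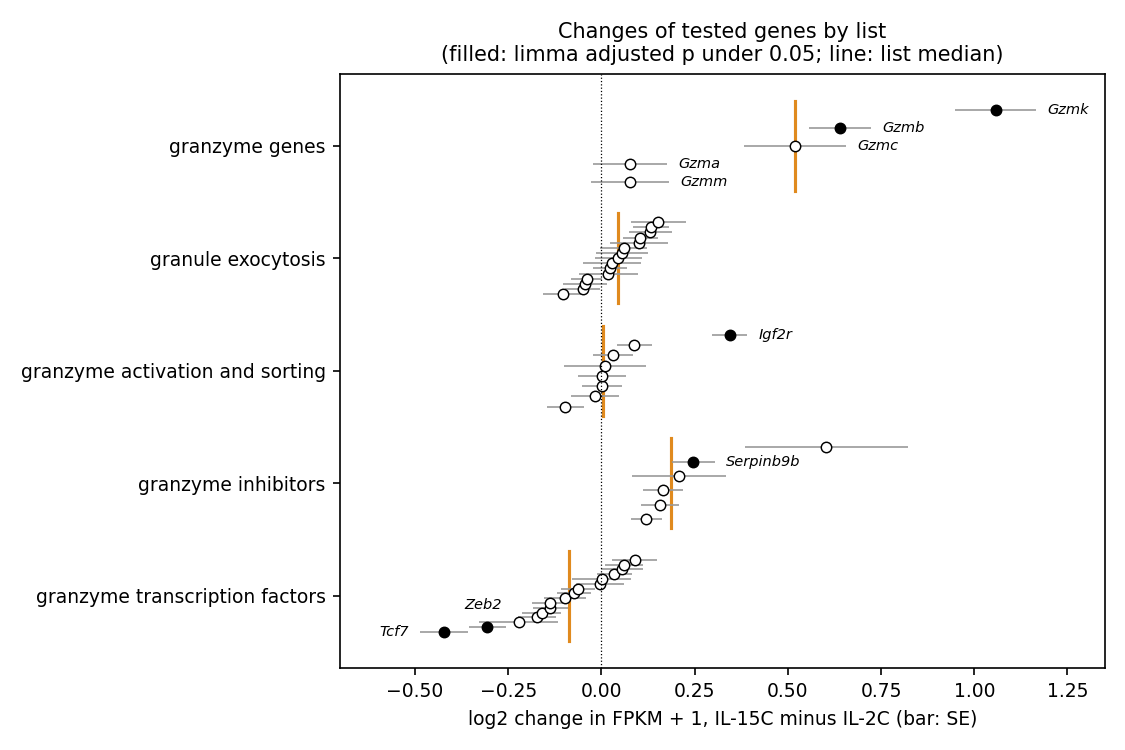
Log2 change of FPKM + 1, IL-15C minus IL-2C, for each tested gene of 5 lists; bars are the SE of the limma fit, filled points have an adjusted p under 0.05 and the vertical line per list is its median. Gzmk at 1.06 and Gzmb at 0.64 are the 2 filled granzyme points, and the granule exocytosis list has none.

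The genes whose levels followed those of Gzmb and Gzmk most closely were looked up among 7555 other genes with a mean of at least 5 FPKM. Likeness was the root mean square difference of log2(FPKM + 1) values, centred per gene, over 6 libraries that include both groups, so genes that rose by a like amount come first. Glrx, which encodes the redox enzyme glutaredoxin, was closest to Gzmb with a difference of 0.046, and had 45.9, 39.2 and 36.6 FPKM in the IL-15C libraries, against 27.1, 24.9 and 25.7 FPKM in the IL-2C libraries. Rom1, known for a membrane protein of photoreceptors, and Lpar5, a receptor gene for lysophosphatidic acid, followed at 0.074 and 0.075. Gzmb itself varied by 0.337 about its own mean. For Gzmk, which varied by 0.551, the closest were S100a4, which encodes a calcium-binding protein, at 0.145, Thy1, which encodes the surface protein CD90, at 0.209 and again Lpar5 at 0.231.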

How the data were processed

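RNA from sorted NK cells was sequenced from Illumina libraries, per the labels' protocols. Per the submitters' processing notes the tools were TopHat2 2.0.13 and Cufflinks 2.2.1 and the build mm10. Which gene annotation was used was not stated in the sources. For each library the authors deposited FPKM values with bounds per library, and a Cuffdiff table of group FPKM on a separate scale, per the file headers.

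Rows were summed per gene, and 10 genes with a failed estimate were left out. A bound was read as the value plus 2 SD of a Poisson count, which gives implied fragments. The total was 23543141 to 27229145 fragments per library, and the precision covers counting error only. FPKM is no count, so no count model was fitted. The test was limma 3.58.1 (R 4.3.3) with an intensity trend on log2(FPKM + 1), two-sided, for 9831 genes with a mean of at least 1 FPKM, and it was tested on simulated data. Groups and replicate numbers came from sample titles. Ratios were tested by exact permutation.

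Named were the 10 members, up to 3 called genes per list with the smallest adjusted p, 8 fixed genes (Prf1, Srgn, Ctsc, Serpinb9, Serpinb6b, Tbx21, Eomes and Runx3), and the 3 genes most like each called member. Neighbouring genes, Ctsg, Serpina3f and the marker genes were named after their values were seen. The members and lists were chosen with earlier results of these data known. The list of granzyme target genes is not reported here. Mcpt1-ps1, Ighm, Ighd and Ly6g were not matched by symbol. Alternatives were other pseudocounts, filters and scalings, no trend, a replicate block and leaving out each library. Promoters came from RefSeq (GRCm38.p6), matched for all 10 members, and transcripts and gene order from GENCODE M21 on mm10. Biopython 1.88, pandas 2.3.3 and matplotlib 3.10.9 under Python 3.11.15 were used.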

Additional observations from a re-analysis of the deposited data

How the results depend on the processing

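The call of Gzmk held in every fit run except that with no filter, and the call of Gzmb in every fit except that one and the fit without IL-2C replicate 2. The number of granzyme genes called higher was 2; it was 0 with no filter on low values and 1 to 3 with each library left out, the 1 being without IL-2C replicate 2. It was 2 when genes above 0 in all 6 libraries were tested, an alternative chosen after seeing the data, with adjusted p of 0.0280 for Gzmk and 0.0386 for Gzmb; the cause of the loss without a filter was not tested. Quantile normalization gives Gzma a change of 0 by construction, since it ranked second in every library. Summed granzyme FPKM had a ratio of 1.04 to 1.13 over its alternatives. The log2 difference of the Gzmb to Gzma ratio was 0.49 to 0.62 and that of Gzmk to Gzma 0.95 to 1.12 with each library left out.

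Over all genes, 169 were called higher and 464 lower. They were 12 and 17 with no filter, where 0 of the 12 were among the 169, 89 and 138 among genes above 0 in all libraries, 325 and 207 after scaling to a common median, and 308 and 272 after quantile normalization. With each library left out they ranged from 14 to 176 higher and from 15 to 575 lower, the lowest counts being without IL-2C replicate 2. Signs turned for small changes that passed no test. Gzmm ranged from -0.0558 (without IL-15C replicate 1) to 0.174 with a library left out. Ctsc was 0.0277 with a common median and ranged from -0.0754 to 0.0326, positive when IL-15C replicate 3 (0.0326) or IL-2C replicate 1 (0.0321) was left out. Tbx21 was -0.0307 after quantile normalization and ranged from -0.0660 to 0.0832, negative when IL-15C replicate 1 (-0.0507), IL-2C replicate 2 (-0.0140) or 3 (-0.0660) was left out. Runx3 ranged from -0.0014 (without IL-2C replicate 3) to 0.102. The causes were not tested. Libraries of the same number did not deviate together, with correlations of -0.029, -0.156 and -0.024. Libraries of unlike number had correlations from -0.143 to 0.177, so these values cannot tell whether the numbers pair samples. The labels do not say so either. The replicate block gave 171 higher and 346 lower genes, 3 granzyme genes higher, with Gzmc added (adjusted p = 0.0379), no call for Serpinb9b (0.0624) or Cma1 (0.0696), and ratio differences of 0.56 and 1.04 with an exact p of 0.25, the smallest that 3 pairs allow. Over single named genes, 314 alternative values kept their direction and side of the threshold, 37 lost the call, 7 gained it and 9 turned sign. Few fragments stand behind Gzmc, and what the 5 genes listed at 0 owe to depth was not tested.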
